A study of Mus musculus with 8 samples.

Results

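The collagen genes, whose products are the most abundant structural proteins of skin, were followed through 8 microarrays of cells sorted from mouse basal cell carcinoma. They were taken as every gene whose symbol reads Col, a number, a and a number, and which has a probe set assigned to it alone. This gave 42 collagen genes among 17097 named genes: 11 fibrillar, 9 of the basement membrane, 4 transmembrane and 18 others. All 4 mice had the genotype K14-CreER/Ptch1cKO, in which a Cre recombinase driven by the keratin 14 promoter removes the Hedgehog receptor Ptch1 from keratinocytes, and their tumour cells carried a green fluorescent reporter of Lgr5, a receptor of hair follicle stem cells. From the back skin of each mouse, cells positive for Lrig1, a membrane protein of upper follicle progenitors, were sorted into an Lgr5-positive and an Lgr5-negative population (spelled Lrg5- in the labels), with 1 array each. There were 2 untreated mice and 2 treated with vismodegib, an inhibitor of the Hedgehog transducer Smoothened, so each of the 4 groups holds n = 2 mice. The epidermis had been parted from the dermis with the protease thermolysin before the sort. The sources used here state no dose, duration, strain or age. The small number of arrays limits precision throughout.

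Collagens are trimers of chains that wind around each other through long runs of glycine repeats. Fibrillar collagens form the banded fibres of dermis, tendon and cartilage. Type IV chains build the sheet-like network of basement membranes, on which basal keratinocytes and hair follicles rest, and type VII and type XVII collagen fasten the epidermis to it. Keratinocytes make type IV, VII and XVII chains themselves, whereas dermal fibrils come mainly from fibroblasts.

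Levels are log2 signals, and differences between group means are log2 fold changes with the standard error (SE) from limma. A gene is called where the p-value, adjusted over the 14403 genes tested, lies under 0.05. Genes had to exceed 4.85 (the 25th percentile of all values, here the dim threshold) in at least 2 arrays to be tested. Of the 42 collagen genes, 34 met this, 32 of them in all 8 arrays. The 8 that did not were Col3a1, Col6a3, Col6a5, Col9a1, Col9a2, Col11a1, Col24a1 and Col26a1. Of these, 7 lay under the threshold in every array, and Col3a1, a main chain of dermal fibrils, ranged from 4.56 to 4.91 and exceeded it in 1 array only. Just inside it, Col5a3, a minor fibrillar chain, ranged from 4.62 to 4.98 and passed in 2 arrays. As a check on the sort, Lgr5 stood at 9.44 or higher in every Lgr5-positive array and between 4.83 and 8.52 in the Lgr5-negative ones. Lgr5 itself fell with vismodegib, by −3.31 ± 0.25 in Lgr5-negative and −1.25 ± 0.25 in Lgr5-positive cells. These effects differed by 2.06 ± 0.35 (adjusted p = 0.0413 by limma). The Lgr5-negative population was thus not alike in Lgr5 before and after treatment. The part of this in the collagen comparisons was not tested. Krt5 and Krt14, the basal keratins, lay between 12.23 and 12.92 in all arrays, and all 10 keratinocyte markers exceeded the dim threshold everywhere. Within that list, 2 markers were called. Of all measured genes, 0.398% to 14.4% were called, depending on the comparison. Krt15, a keratin of follicle stem cells, rose with vismodegib in Lgr5-negative cells (2.15 ± 0.17) and was higher in untreated Lgr5-positive than Lgr5-negative cells (1.65 ± 0.17), and its vismodegib effects differed by −1.73 ± 0.24. Cdh1, which encodes E-cadherin, rose in Lgr5-positive cells (0.56 ± 0.11) and was lower there than in Lgr5-negative cells before treatment (−0.65 ± 0.11).

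Markers of other cells were read beside the collagens. Of all measured genes, 9.16% were called for vismodegib in Lgr5-positive cells and 2.8% in Lgr5-negative cells. Between the populations 14.4% were called when untreated and 0.398% after treatment, and for the difference between the vismodegib effects 1.18%. The marker counts are to be read against these shares. Of 14 measured dermal fibroblast markers, 5 (Pdgfra, Dpt, Lum, Fbln2 and Mfap5) stayed under the dim threshold in all 8 arrays, and the mean of the 14 lay between 6.22 and 6.59 in every array. The other 9 exceeded it everywhere, such as the matrix protein fibulin 1 (Fbln1), at 9.36 to 11.98. In this list 1 marker rose with vismodegib in Lgr5-positive cells (Vim, from 6.46 and 6.16 to 9.77 and 9.38) and 1 fell (Fbln1, −1.40 ± 0.33). In Lgr5-negative cells 0 rose and 2 fell. Against Lgr5-negative cells, Lgr5-positive cells had 1 marker higher and 3 lower when untreated, and 1 higher and 0 lower after treatment. The vismodegib effects differed between the populations for 2 markers. The mean of 12 endothelial and pericyte markers lay between 5.66 and 5.93, with Mcam alone called (higher in untreated Lgr5-positive cells and lower there after vismodegib). None of 7 melanocyte and Schwann or 6 adipocyte and muscle markers was called in any comparison. Lists this small would often hold no call at the shares given, so nothing is drawn from that. The mean of 14 macrophage and Langerhans cell markers was 7.07 and 7.42 in untreated Lgr5-negative arrays, 5.93 and 5.45 in untreated Lgr5-positive arrays, 8.28 and 8.12 in treated Lgr5-negative arrays and 8.99 and 8.51 in treated Lgr5-positive arrays. Of these 14, 13 rose with vismodegib in Lgr5-positive cells and 3 in Lgr5-negative cells, while 7 were lower in untreated Lgr5-positive than Lgr5-negative cells and 2 higher in the treated ones. The part of any of these cells in the collagen values was not tested. In bulk samples, fewer cells of a type and less RNA per cell cannot be told apart.

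After vismodegib, collagen transcripts of Lgr5-positive cells fell more often than they rose. Of the 42 genes, 10 fell and 4 rose, which is 33.3% called, where 9.16% of all 17097 measured genes were called (10.9% of those tested, 6.37% higher and 4.51% lower). In Lgr5-negative cells 6 fell and 2 rose, 19.0% of the 42 against 2.80% of all measured genes (3.32% of those tested, 1.26% higher and 2.06% lower). The median over the 42 was −0.15 in Lgr5-positive and −0.01 in Lgr5-negative cells, against −0.01 and 0.01 over all measured genes. Before treatment, 11 collagen genes were higher and 0 lower in Lgr5-positive than in Lgr5-negative cells, or 26.2% of the 42 against 14.4% of all measured genes (17.1% of those tested, 6.21% higher and 10.9% lower), with a median of 0.19 against 0.03. After treatment 1 was higher (2.38% of the 42, against 0.398% of all measured genes and 0.472% of those tested, 0.34% higher and 0.132% lower). The drug effect in Lgr5-positive cells and the untreated comparison share the untreated Lgr5-positive arrays, so their values stand side by side here and are not independent of each other. In every call the arrays of the groups compared did not overlap. With 2 arrays a group this adds no support. Many collagen genes that were not called did not overlap either, such as Col5a3 with vismodegib in Lgr5-positive cells (−0.10 ± 0.12).

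Fewer collagen genes were called for vismodegib in Lgr5-positive cells without vismodegib Lgr5-positive mouse 1. The same held in Lgr5-negative cells without either untreated Lgr5-negative mouse or without vismodegib Lgr5-negative mouse 2. It also held between untreated populations without either untreated Lgr5-negative mouse. In each of these fits fewer of all tested genes were called as well, so the losses were not particular to collagens. With only the 4 arrays compared, the 8 collagen calls in Lgr5-negative cells became 5. Over all 14403 tested genes, the calls went from 478 to 234 in that fit.

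**Figure D1:**
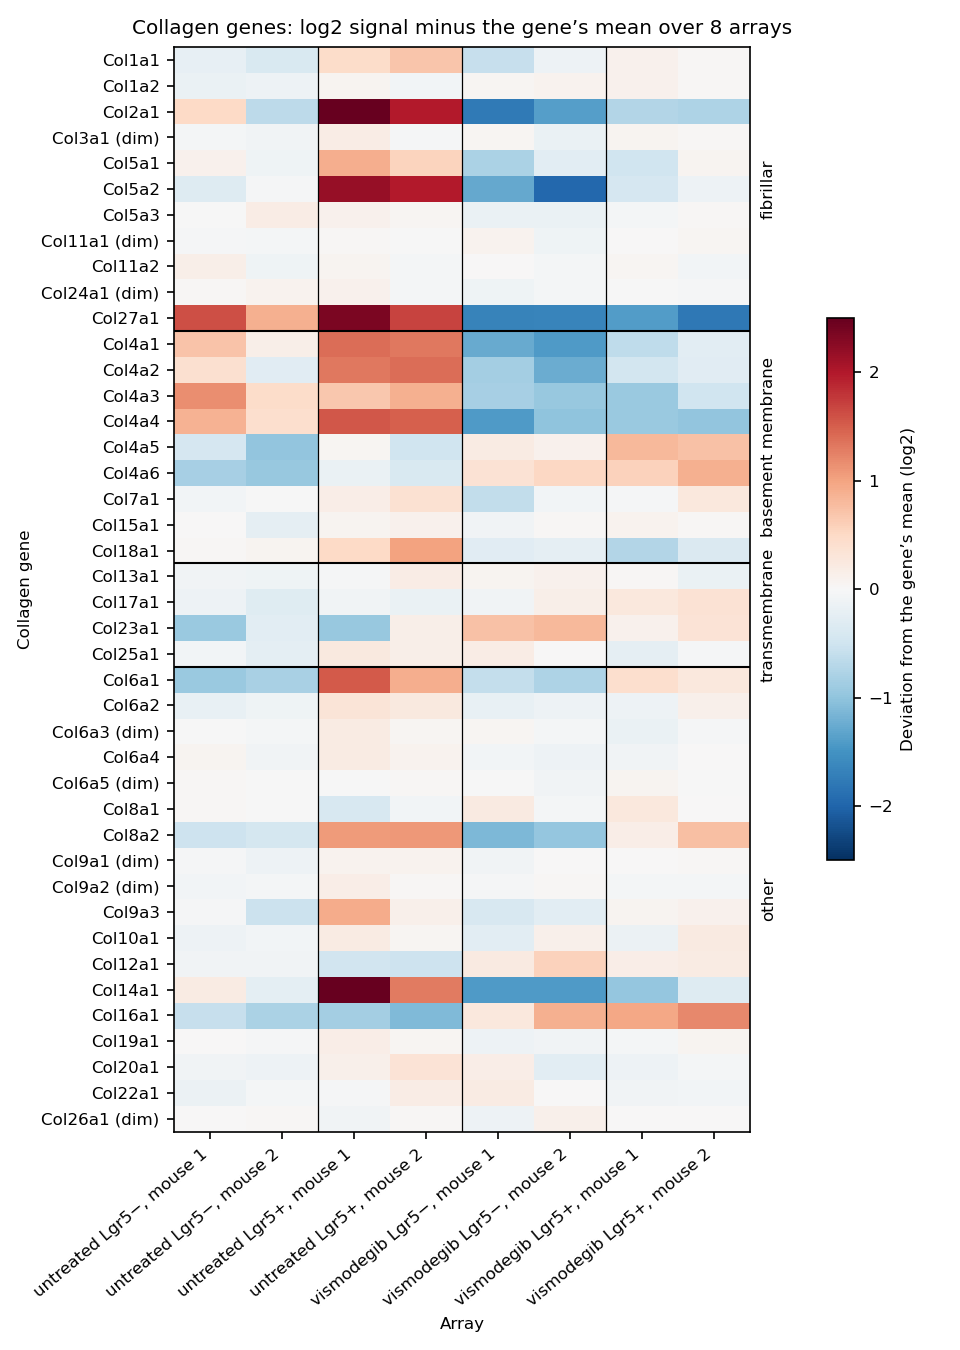
Heat map of the 42 collagen genes (rows, by class) over the 8 arrays (columns, by group and mouse), coloured by log2 signal minus the gene's own mean. Col2a1, Col5a2, Col27a1, Col14a1 and the Col4a1 to Col4a4 rows are warmer in untreated Lgr5-positive than in treated arrays, Col4a5, Col4a6 and Col16a1 are warm after vismodegib, and rows marked dim were not tested.

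Of the 9 basement membrane genes, 5 fell and 2 rose with vismodegib in Lgr5-positive cells (median −1.30), 4 fell and 1 rose in Lgr5-negative cells (median −0.30), and 5 were higher in untreated Lgr5-positive than Lgr5-negative cells (median 0.61). The calls were 77.8%, 55.6% and 55.6% of the class, against 9.16%, 2.8% and 14.4% of all measured genes. The 6 type IV genes went in opposite directions by gene pair. They lie head to head in the mouse genome, Col4a1 beside Col4a2 on chromosome 8, Col4a3 beside Col4a4 on chromosome 1 and Col4a5 beside Col4a6 on the X chromosome, each with no other protein-coding gene between them. After vismodegib the first 2 pairs fell in both populations. Col4a6 rose in both, and its partner Col4a5 rose in Lgr5-positive cells. The chains of Col4a1 and Col4a2 form a trimer together, as do those of Col4a3, Col4a4 and Col4a5 and those of Col4a5 and Col4a6.

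Col4a1, a chain of the form found in nearly all basement membranes, stood at 11.53 and 11.46 in untreated Lgr5-positive arrays and at 9.51 and 9.87 after treatment. In Lgr5-negative cells it went from 10.84 and 10.28 to 8.88 and 8.72. The falls were −1.80 ± 0.21 (adjusted p = 0.00207) and −1.76 ± 0.21 (adjusted p = 0.00725). Its second probe set fell too, by −2.08 ± 0.23 and −1.29 ± 0.23. Col4a2, its trimer partner, went from 9.76 and 9.84 to 7.99 and 8.16 in Lgr5-positive cells (−1.73 ± 0.23, adjusted p = 0.00401). In Lgr5-negative cells it went from 8.85 and 8.17 to 7.59 and 7.20 (−1.12 ± 0.23, adjusted p = 0.049). That last call was lost without any single array, with no filter on dim genes (adjusted p = 0.0639), with the mouse number as a block (0.0591), with a random mouse block (0.0503), with only the 4 arrays compared (0.117) and when every probe set was a feature of its own.

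Col4a3 and Col4a4 encode chains of the specialised network best known from kidney and lung. Col4a3 went from 7.33 and 7.54 to 5.72 and 6.16 in Lgr5-positive cells (−1.49 ± 0.25, adjusted p = 0.00952) and from 7.81 and 7.10 to 5.83 and 5.70 in Lgr5-negative cells (−1.69 ± 0.25, adjusted p = 0.0166). Its second probe set differed by −0.17 ± 0.15 and −0.40 ± 0.15 without passing. Col4a4 had the largest log2 decrease of the 9 basement membrane genes, from 8.36 and 8.31 to 5.89 and 5.82 in Lgr5-positive cells (−2.48 ± 0.19, adjusted p = 0.000452). In Lgr5-negative cells it went from 7.67 and 7.23 to 5.40 and 5.81 (−1.84 ± 0.19, adjusted p = 0.00428). Its second probe set lay under the dim threshold in all 8 arrays. The Col4a3 call was lost without untreated Lgr5-positive mouse 2 or vismodegib Lgr5-positive mouse 1 in Lgr5-positive cells, and, in Lgr5-negative cells, without untreated mouse 1, without vismodegib mouse 2 or with only the 4 arrays compared (adjusted p = 0.0518).

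Col4a5 and Col4a6, whose chains form the network under the epidermis and around follicles and glands, went the other way. Col4a6 stood at 7.64 and 7.42 in untreated and at 8.39 and 8.70 in treated Lgr5-positive arrays (1.02 ± 0.15, adjusted p = 0.00597), and at 6.97 and 6.87 against 8.16 and 8.32 in Lgr5-negative arrays (1.32 ± 0.15, adjusted p = 0.00625). Its second probe set rose as well, by 1.12 ± 0.14 and 1.42 ± 0.14. Col4a5 went from 6.67 and 6.12 to 7.43 and 7.37 in Lgr5-positive cells (1.00 ± 0.23, adjusted p = 0.0322). In Lgr5-negative cells it stood at 6.21 and 5.64 against 6.83 and 6.74, groups that do not overlap, with a difference of 0.86 ± 0.23 that did not pass (adjusted p = 0.0962). The Col4a5 call was lost without untreated Lgr5-positive mouse 2, without either treated Lgr5-positive mouse and when its probe sets were averaged (0.71, adjusted p = 0.0527), and Col4a6 lost its Lgr5-negative call without untreated Lgr5-negative mouse 2.

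**Figure D2:**
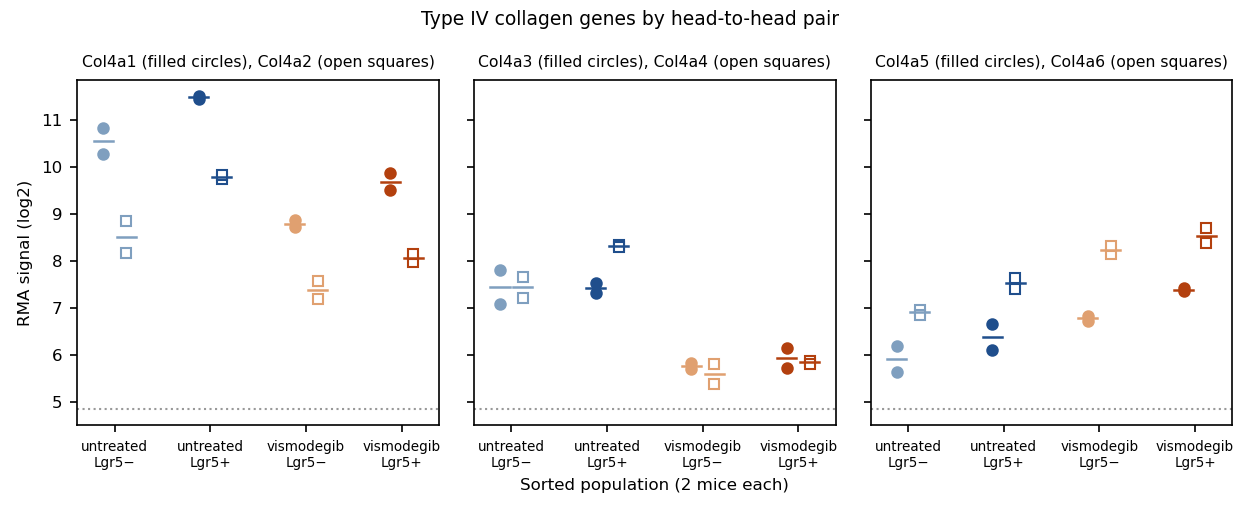
Log2 signal of the type IV genes by head-to-head pair in the 4 sorted populations. Points are mice, short lines are group means and the dotted line is the dim threshold at 4.85. The Col4a1, Col4a2, Col4a3 and Col4a4 points are lower after vismodegib in each population, and the Col4a5 and Col4a6 points are higher.

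The upstream sequences of Col4a5 and Col4a6 are shown because these neighbours, read from opposite strands, were the only type IV genes that rose. Their RefSeq starts lie 1343 bases apart on the X chromosome, while those of Col4a1 and Col4a2 lie 21 bases apart with transcripts that overlap. The stretches are the part of the RefSeq window of 250 bases before the start that lies outside the gene (GRCm38.p6), at chrX:141475169-141475369 on the plus strand and chrX:141474096-141474326 on the minus strand, written 5′ to 3′. Capitals mark a CCAAT box.
Col4a5: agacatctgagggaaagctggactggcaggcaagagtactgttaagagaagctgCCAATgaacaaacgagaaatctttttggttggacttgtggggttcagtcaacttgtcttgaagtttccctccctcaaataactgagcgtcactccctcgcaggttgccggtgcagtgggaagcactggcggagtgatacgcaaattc
Col4a6: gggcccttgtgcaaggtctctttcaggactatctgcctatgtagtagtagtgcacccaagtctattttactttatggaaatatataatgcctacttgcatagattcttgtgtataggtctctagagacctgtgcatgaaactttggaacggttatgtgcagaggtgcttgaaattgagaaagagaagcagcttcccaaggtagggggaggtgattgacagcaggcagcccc
Col4a5 holds 1 CCAAT and Col4a6 none in the printed bases. Motifs were searched on both strands of the RefSeq windows of 300 bases (250 before and 50 after the start), which matched 33 of the 42 collagen genes in 36 windows. The GC box GGGCGG was in 22 of these windows (61.1%) and in 35.7% of all 32851 windows. Windows of both Col4a5 and Col4a6 were among the 22, though neither printed stretch holds this box. The box CCAAT was in 13 (36.1%, against 37.4% of all), and the GLI motif GACCACCCA in 0 of 36 (0.253% of all). A motif in only 83 of 32851 windows would seldom be met in 36, so nothing is drawn from its absence. Genes without a window included Col2a1, Col5a2, Col14a1 and Col4a3, all of which fell with vismodegib in Lgr5-positive cells.

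In untreated tumours, 4 of the 6 type IV genes were higher in Lgr5-positive than in Lgr5-negative cells. Of all tested genes, 6.21% were called higher in that comparison. Col4a1 was higher by 0.93 ± 0.21 (adjusted p = 0.0225), Col4a2 by 1.29 ± 0.23 (adjusted p = 0.0107), Col4a4 by 0.88 ± 0.19 (adjusted p = 0.02) and Col4a6 by 0.61 ± 0.15 (adjusted p = 0.0318). Col4a3 stood at −0.02 ± 0.25. Col4a5 differed by 0.47 ± 0.23, which passed with the mouse as a block (± 0.13, adjusted p = 0.0452). Each of these 4 calls was lost without untreated Lgr5-negative mouse 2. Without untreated Lgr5-positive mouse 1, Col4a1, Col4a4 and Col4a6 were also lost, without untreated Lgr5-positive mouse 2, Col4a1 and Col4a4, and without untreated Lgr5-negative mouse 1, Col4a6. After treatment the 6 genes differed between populations by 0.18 to 0.89, and none of them was called.

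Among the other basement membrane genes, Col18a1 fell and Col7a1 did not pass. Col18a1, whose C-terminal fragment is endostatin, went from 9.22 and 9.71 to 7.98 and 8.35 in Lgr5-positive cells (−1.30 ± 0.19, adjusted p = 0.00597), and its second probe set fell by −1.14 ± 0.24. In Lgr5-negative cells it stood at 8.73 and 8.78 before and 8.43 and 8.48 after treatment, a difference of −0.30 ± 0.19 (adjusted p = 0.447). Untreated Lgr5-positive cells had more of it than Lgr5-negative cells by 0.70 ± 0.19 (adjusted p = 0.0429), and this call was lost without any array but untreated Lgr5-positive mouse 1, at 0.46 without untreated Lgr5-positive mouse 2. It was also lost with no filter (adjusted p = 0.0517), when probe sets were averaged (0.1), with an intensity trend (0.0502) and with only the 4 arrays compared (0.0599), and its second probe set differed by 0.43 ± 0.24 without passing. Col7a1, the anchoring fibril collagen, lay between 9.30 and 10.28 in all arrays, with differences from −0.29 to 0.45 over the 4 comparisons. Col15a1, a proteoglycan collagen of vessel and muscle basement membranes, lay between 5.44 and 5.78.

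The fibrillar class was led by Col27a1, Col2a1 and Col5a2, all of which fell in Lgr5-positive cells (3 of 11 measured, 0 higher, class median −0.10). In Lgr5-negative cells 2 of the 11 fell (median −0.14), and 3 were higher in untreated Lgr5-positive than Lgr5-negative cells (median 0.16). These calls, in the same order, were 27.3%, 18.2% and 27.3% of the class, against 9.16%, 2.8% and 14.4% of all measured genes. Col27a1, best known from cartilage and a fibrillar chain with a shorter helix, went from 10.07 and 9.41 to 6.32 and 5.93 in Lgr5-positive cells, 12.2-fold lower (−3.61 ± 0.29, adjusted p = 0.000509). It went from 9.33 and 8.61 to 6.04 and 6.06 in Lgr5-negative cells, 7.54-fold lower (−2.91 ± 0.29, adjusted p = 0.00374). Treated and untreated arrays lay more than 2 log2 units apart in both populations. Its second probe set fell less, by −1.60 ± 0.35 and −1.77 ± 0.35, and passed in both. The falls of −3.61 and −2.91 by the first probe set were the largest log2 decreases among the 34 tested collagen genes in each population. In untreated cells Col27a1 was higher in the Lgr5-positive population by 0.77 ± 0.29, which did not pass (adjusted p = 0.112) except with the mouse as a block (± 0.15, adjusted p = 0.0163).

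Col2a1, the major collagen of cartilage, stood at 10.18 and 9.34 in untreated Lgr5-positive arrays and at 7.85 and 6.71 in their Lgr5-negative counterparts. After treatment it stood at 6.62 and 6.59 in Lgr5-positive and at 5.58 and 5.99 in Lgr5-negative arrays. The untreated Lgr5-positive arrays were thus above all others. It was 5.59-fold higher in untreated Lgr5-positive than Lgr5-negative cells (2.48 ± 0.39, adjusted p = 0.00697) and fell 8.92-fold with vismodegib in Lgr5-positive cells (−3.16 ± 0.39, adjusted p = 0.00293). In Lgr5-negative cells the difference of −1.49 ± 0.39 did not pass (adjusted p = 0.0931). The effect in Lgr5-positive minus that in Lgr5-negative cells was −1.66 ± 0.56 (adjusted p = 0.185), which passed with the mouse as a block (± 0.23, adjusted p = 0.0276).

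Col5a2, a chain of type V collagen, which regulates the diameter of type I fibrils, stood at 9.69 and 9.50 in untreated Lgr5-positive arrays against 7.21 and 7.49 in Lgr5-negative arrays. After treatment it stood at 7.10 and 7.39 against 6.24 and 5.57. It was higher in untreated Lgr5-positive cells by 2.25 ± 0.23 (adjusted p = 0.00163), fell there by −2.35 ± 0.23 (adjusted p = 0.00109) and fell in Lgr5-negative cells by −1.44 ± 0.23 (adjusted p = 0.0225). After treatment the populations still did not overlap, with a difference of 1.34 ± 0.23 (adjusted p = 0.0741) that passed with a filter at the median of all values. Its Lgr5-negative fall was lost without untreated mouse 1 or 2 or vismodegib mouse 2 of that population and with only the 4 arrays compared (adjusted p = 0.0692). Its second probe set exceeded the dim threshold in the untreated Lgr5-positive arrays alone (4.96 and 4.93), where it had to be highest to be tested at all, and adds no support. Col3a1, its neighbour on chromosome 1, was not tested, as it lay at or near the dim threshold in all arrays.

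Type I collagen, the main fibril of dermis, changed less. Col1a1 stood at 6.96 and 7.19 in untreated Lgr5-positive arrays and between 5.93 and 6.61 in the other 6. It was higher in untreated Lgr5-positive than Lgr5-negative cells by 0.88 ± 0.17 (adjusted p = 0.0147), a call lost without untreated Lgr5-negative mouse 1 or 2 or untreated Lgr5-positive mouse 2. Its differences with vismodegib were −0.51 ± 0.17 in Lgr5-positive and −0.05 ± 0.17 in Lgr5-negative cells, and neither passed. Col1a2, its trimer partner, lay between 5.01 and 5.28, near the dim threshold, by the 1 probe set assigned to it, with no call. Col5a1, the partner of Col5a2, did not pass in Lgr5-positive cells (−0.94 ± 0.25, adjusted p = 0.0538) and before treatment (0.72 ± 0.25, adjusted p = 0.0879), and the latter passed with the mouse as a block (± 0.13, adjusted p = 0.0123) and with only the 4 arrays compared. In Lgr5-positive cells it passed with a filter at the median, after cyclic loess, with a random mouse block and without either vismodegib Lgr5-negative mouse. Col11a2, a cartilage fibril chain, stayed between 4.94 and 5.19.

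**Figure D3:**
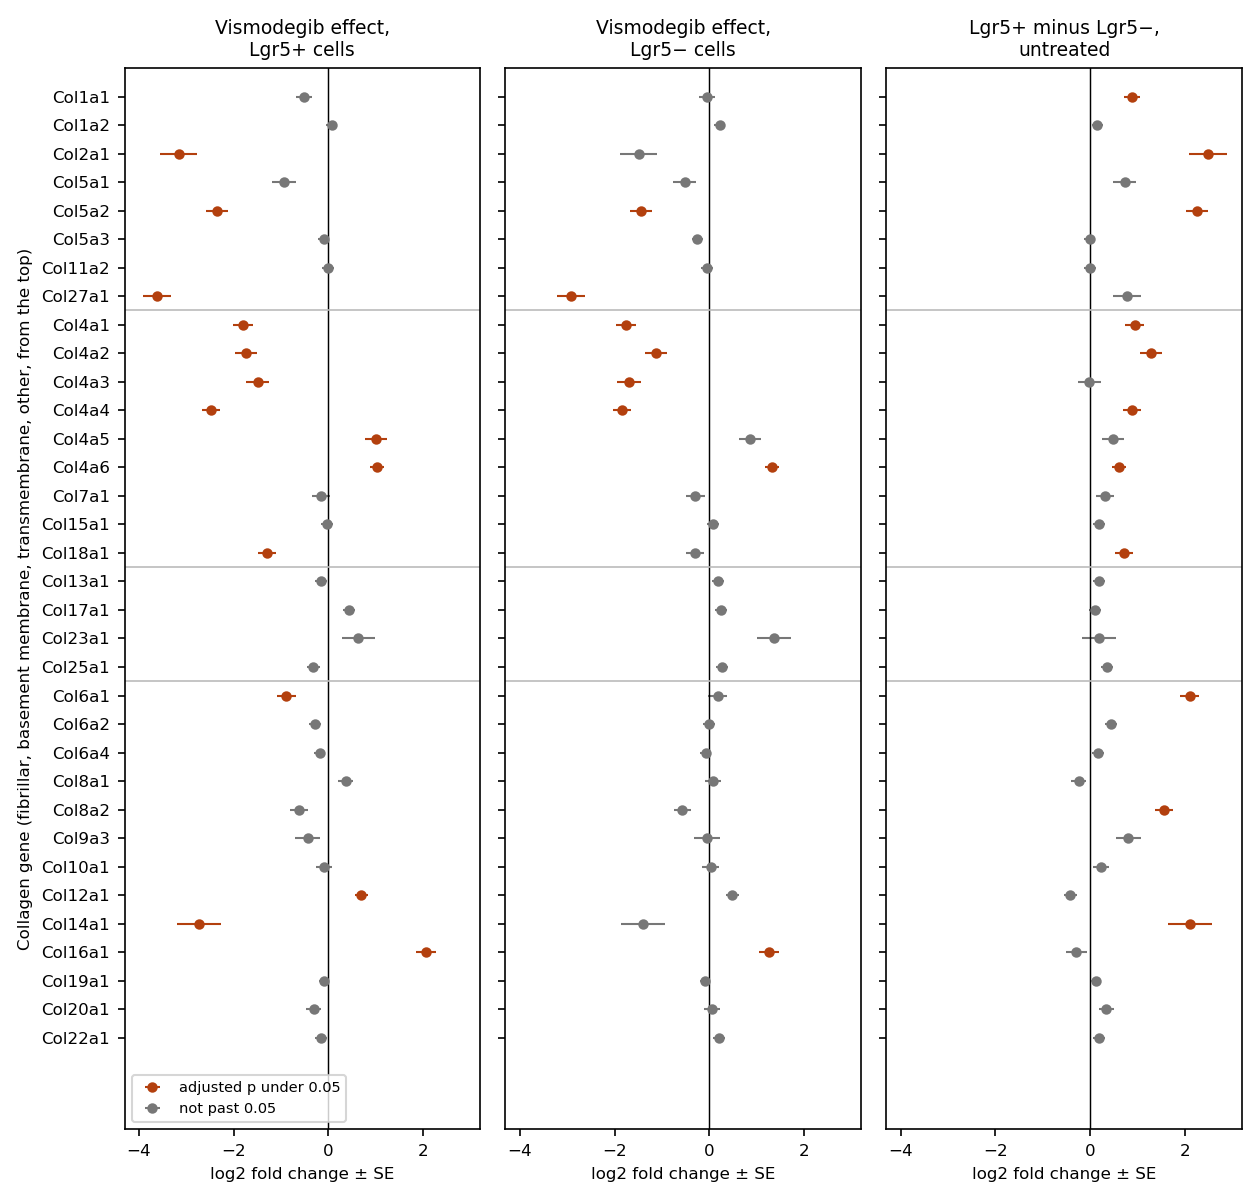
Log2 fold changes with SE of the 34 tested collagen genes for vismodegib in Lgr5-positive cells, vismodegib in Lgr5-negative cells and Lgr5-positive minus Lgr5-negative untreated cells, each on n = 2 arrays a group. Orange points are called, and grey lines part the classes. Col27a1 has the lowest value in both drug panels (−3.61 and −2.91), and all 11 called genes in the right panel lie above 0.

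Of the 18 other collagens, Col14a1 and Col6a1 fell and Col16a1 and Col12a1 rose with vismodegib in Lgr5-positive cells. In Lgr5-negative cells 1 of the 18 was called, Col16a1. That is 22.2% and 5.56% of the class, against 9.16% and 2.8% of all measured genes. Col16a1, Col12a1 and Col14a1 belong to the collagens that attach to the surface of fibrils or, for type XVI, to basement membrane regions near them. Col16a1 went from 7.32 and 7.07 to 9.13 and 9.37 in Lgr5-positive cells, 4.16-fold (2.06 ± 0.22, adjusted p = 0.0014), and from 7.59 and 7.38 to 8.44 and 9.05 in Lgr5-negative cells, 2.39-fold (1.26 ± 0.22, adjusted p = 0.0283). It was the largest log2 increase of the 34 in Lgr5-positive cells, and all 4 treated arrays lay above all 4 untreated ones. Its Lgr5-negative call was lost without either untreated Lgr5-negative mouse, without vismodegib Lgr5-negative mouse 2, without either vismodegib Lgr5-positive mouse and with only the 4 arrays compared (adjusted p = 0.074). By the 1 probe set assigned to it, Col12a1 rose from 5.76 and 5.72 to 6.41 and 6.46 in Lgr5-positive cells (0.69 ± 0.14, adjusted p = 0.0183). This call was lost without untreated Lgr5-positive mouse 2 or either vismodegib Lgr5-positive mouse. In Lgr5-negative cells Col12a1 differed by 0.49 ± 0.14 without passing. Further probe sets of Col12a1 may be among those without a symbol. Col12a1 also passed as lower in untreated Lgr5-positive cells after cyclic loess and without either vismodegib Lgr5-negative mouse, where the difference otherwise was −0.42 ± 0.14 (adjusted p = 0.0728). Macrophage markers rose in the same comparison as these 2 genes, as given above, and their part was not tested.

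Col14a1 stood at 9.45 and 7.87 in untreated Lgr5-positive arrays, at 6.78 and 6.34 in untreated Lgr5-negative arrays, at 5.61 and 6.25 after treatment in Lgr5-positive and at 5.16 in both treated Lgr5-negative arrays. Both mice had more of it in the untreated Lgr5-positive population, but by unequal amounts. It was higher in untreated Lgr5-positive than Lgr5-negative cells by 2.10 ± 0.46 (adjusted p = 0.0227) and fell there with vismodegib by −2.73 ± 0.46 (adjusted p = 0.0108). Of its 2 further probe sets, 1 exceeded the dim threshold in the untreated Lgr5-positive arrays alone and adds no support. The other was called in both comparisons (2.11 ± 0.56 and −3.06 ± 0.56), the fall being against treated arrays at 4.63, under the threshold, and 5.34. Without untreated Lgr5-positive mouse 1 the population difference was 1.31, and it did not pass without untreated Lgr5-negative mouse 1 or 2, nor did the fall pass without vismodegib Lgr5-positive mouse 1.

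Col6a1 and Col8a2 were higher in the Lgr5-positive population of untreated tumours. Col6a1, a chain of the beaded filaments that surround cells, lay at 7.02 and 6.41 in untreated Lgr5-positive arrays and at 4.56 and 4.68, under the dim threshold, in their Lgr5-negative counterparts. With the low arrays set at the threshold, it was at least 3.64-fold higher (adjusted p = 0.00126 from the values as measured). After treatment it stood at 5.91 and 5.75 against 4.89 and 4.71. It exceeded the threshold in 5 of 8 arrays and thus entered the test through the Lgr5-positive population, so the call between populations is no independent support. The treated difference of 1.03 ± 0.20 did not pass (adjusted p = 0.0987) except without either untreated Lgr5-positive mouse. In Lgr5-positive cells Col6a1 fell by −0.89 ± 0.20 (adjusted p = 0.0307), and this passed without untreated Lgr5-positive mouse 2 or either vismodegib Lgr5-negative mouse but not without any other single array (−0.58 without untreated Lgr5-positive mouse 1) nor with only the 4 arrays compared (adjusted p = 0.081). Without untreated Lgr5-positive mouse 2, the difference between its vismodegib effects was called, which also rests on the dim Lgr5-negative values. Col6a2, its partner in the type VI trimer, did not pass in untreated cells (0.43 ± 0.13, adjusted p = 0.0525). The second Col6a2 probe set, of a type that can also bind transcripts of other genes, was higher in untreated Lgr5-positive cells (0.94 ± 0.13, adjusted p = 0.00406). By that probe set it fell there with vismodegib (−0.59 ± 0.13, adjusted p = 0.026). Col6a3, the third chain of that trimer, lay between 3.96 and 4.33.

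Col8a2, a short-chain network collagen known from the basement membrane of the corneal endothelium, was the 1 collagen gene called between the populations after treatment. It stood at 7.22 and 7.23 in untreated Lgr5-positive against 5.64 and 5.71 in Lgr5-negative arrays (1.55 ± 0.19, adjusted p = 0.00267), and at 6.31 and 6.90 against 5.03 and 5.18 after vismodegib (2.83-fold, adjusted p = 0.0327). All 4 Lgr5-positive arrays were above all 4 Lgr5-negative ones, and the difference between the vismodegib effects was −0.05 ± 0.27. The call after treatment was lost without either untreated Lgr5-negative mouse, either vismodegib Lgr5-negative mouse or vismodegib Lgr5-positive mouse 2, and with only the 4 arrays compared (adjusted p = 0.151). Its upstream sequence is shown because it was the 1 collagen gene called between the populations under both treatments (chr4:126286544-126286793, plus strand, RefSeq, GRCm38.p6), with 4 GC boxes in capitals, 2 of which overlap.
Col8a2: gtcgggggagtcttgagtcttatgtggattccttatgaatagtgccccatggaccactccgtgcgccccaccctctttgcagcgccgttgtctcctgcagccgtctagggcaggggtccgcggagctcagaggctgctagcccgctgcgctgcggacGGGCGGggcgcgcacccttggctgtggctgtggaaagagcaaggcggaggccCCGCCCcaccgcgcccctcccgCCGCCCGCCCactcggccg
Col8a1, the other type VIII chain, gave readings that depend on the probe set. The probe set with the highest mean lay between 7.09 and 7.74, with differences of 0.37 ± 0.16 (vismodegib, Lgr5-positive) and −0.25 ± 0.16 (untreated populations) that did not pass. The other 2 rose with vismodegib in Lgr5-positive cells by 1.44 ± 0.15 and 1.13 ± 0.19 and were lower in untreated Lgr5-positive than Lgr5-negative cells by −1.09 ± 0.15 and −1.28 ± 0.19, and all 4 values passed when adjusted over every probe set. Col9a3, a chain of cartilage fibril surfaces, was higher in untreated Lgr5-positive cells by 0.80 ± 0.27 (adjusted p = 0.0817), which passed with the mouse as a block (± 0.14, adjusted p = 0.0118) and by its second probe set (1.46 ± 0.37, adjusted p = 0.0353). The other tested members of the class, Col6a4, Col10a1, Col19a1, Col20a1 and Col22a1, had log2 ranges over the 8 arrays of 0.29 to 0.60 and no call.

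**Figure D4:**
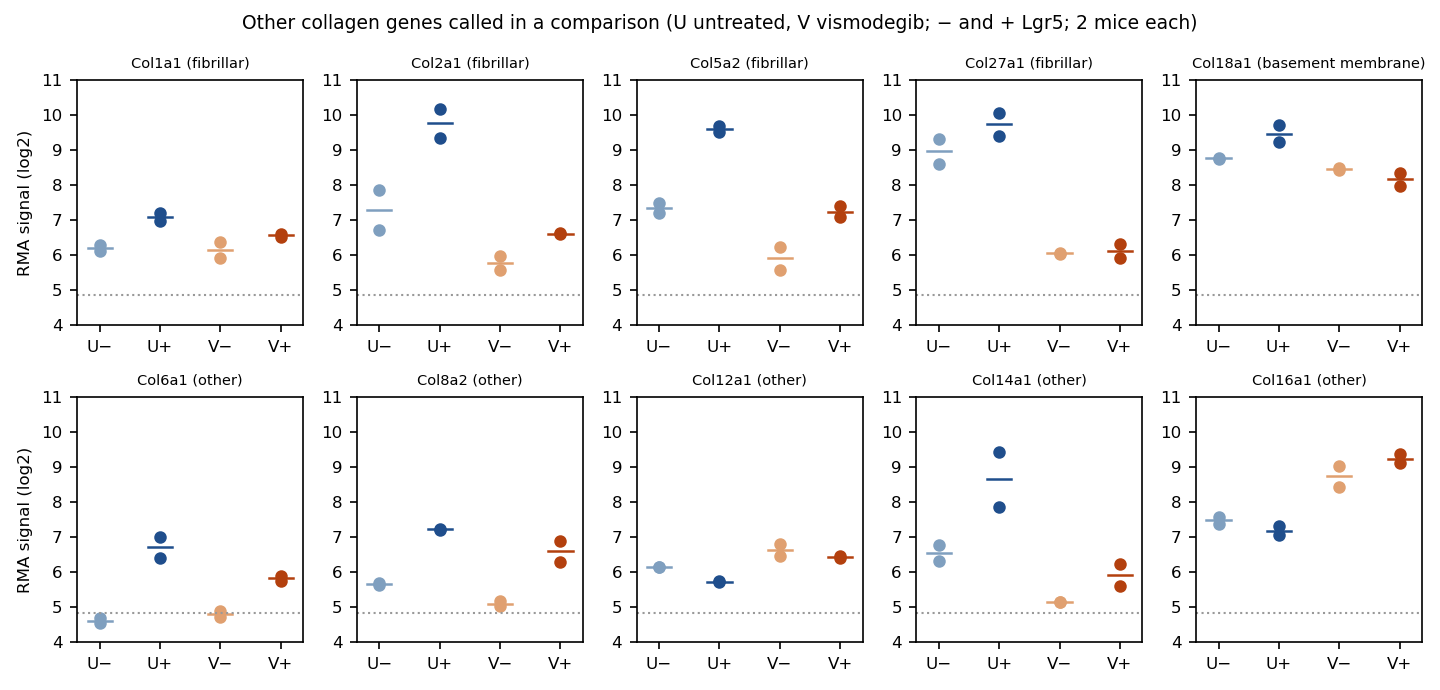
Log2 signal of the 10 called collagen genes outside type IV, by sorted population, with 1 point a mouse, lines at group means and the dim threshold dotted at 4.85. Col8a2 is higher in both Lgr5-positive groups, Col16a1 is higher after vismodegib, and Col2a1, Col5a2, Col6a1 and Col14a1 are highest in the untreated Lgr5-positive arrays.

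None of the 4 transmembrane collagens was called in any comparison by the probe set that stood for it. Of all tested genes, 0.472% to 17.1% were called, depending on the comparison. So small a class would often hold no call at these shares, so nothing is drawn from this. Col17a1, the collagen of hemidesmosomes that ties basal keratinocytes to the basement membrane, lay between 11.86 and 12.52, with 12.09 and 12.01 in untreated and 12.44 and 12.52 in treated Lgr5-positive arrays. These do not overlap, but the difference of 0.43 ± 0.13 did not pass (adjusted p = 0.0755) except with an intensity trend in the prior. Col23a1 stood at 6.80 and 7.47 in untreated against 8.46 and 8.54 in treated Lgr5-negative arrays (1.37 ± 0.35, adjusted p = 0.0882), which passed with the mouse number as a block and without either untreated Lgr5-positive mouse. Of its other probe sets, 1 rose with vismodegib in Lgr5-positive cells (1.97 ± 0.34, adjusted p = 0.0111). Col13a1, found at cell adhesions, ranged from 5.45 to 5.80 and Col25a1 from 6.07 to 6.55.

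No collagen gene was called for a difference between the vismodegib effects in the 2 populations by limma, where 202 of 14403 genes were (1.40%, 0.993% higher and 0.41% lower). At an unadjusted p under 0.05 there were 7 of 34 (20.6%), near the 17.7% of all tested genes. With the mouse as a block 1 was called (Col2a1), beside 300 of all 14403 tested genes, and 1 with every probe set as a feature (Col8a1). The median difference over the 42 genes was −0.14, against −0.02 over all measured genes.

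The genes that make, bind and cut collagen were counted from lists, to be read against the 9.16%, 2.80% and 14.4% of all measured genes called for vismodegib in Lgr5-positive cells, in Lgr5-negative cells and between untreated populations. Of 28 measured genes of collagen synthesis and processing, 2 rose and 2 fell with vismodegib in Lgr5-positive cells and 0 in Lgr5-negative cells, and 2 were higher and 2 lower in untreated Lgr5-positive than Lgr5-negative cells. Tll1, a protease of the family that trims procollagen, fell in Lgr5-positive cells from 8.53 and 6.87 to 3.97, under the dim threshold, and 4.94. With the dim array set at the threshold, the fall was at least 6.98-fold (adjusted p = 0.0111 from the values as measured). The peroxidasin gene Pxdn, whose enzyme cross-links the type IV network, fell from 9.49 and 8.90 to 7.99 and 8.39 (adjusted p = 0.038) and was higher in untreated Lgr5-positive cells (1.18 ± 0.24, adjusted p = 0.0169). P4ha2, a subunit of collagen prolyl hydroxylase, rose (1.04 ± 0.12, adjusted p = 0.00252). None of the 10 measured collagen receptor genes was called in any comparison. The list of collagen-degrading enzymes, 17 of them measured, also holds Adam9, Adam10 and Adam17, membrane proteases known mainly for shedding cell-surface proteins. Of the 17, 4 rose (Ctsk, Mmp2, Adam10 and Adam17) and 1 fell in Lgr5-positive cells, and 2 fell in Lgr5-negative cells. Between untreated populations 1 was higher and 2 were lower in Lgr5-positive cells, and 1, the cathepsin L gene Ctsl, was higher in treated ones (1.46 ± 0.15). The gelatinase gene Mmp2 stood at 6.73 and 6.64 in untreated Lgr5-positive arrays against 8.95 and 9.02 in Lgr5-negative ones (−2.30 ± 0.16, adjusted p = 0.000544), rose with vismodegib in the former (0.97 ± 0.16) and fell in the latter (−0.90 ± 0.16), and these effects differed by 1.87 ± 0.22 (adjusted p = 0.0171). The membrane protease gene Mmp14 fell in Lgr5-positive cells (−0.83 ± 0.16, adjusted p = 0.0194). Cathepsin K (Ctsk), a protease that macrophage-lineage cells also make, went from 4.92 and 5.04 to 8.06 and 6.36 there (2.23 ± 0.46, adjusted p = 0.0221) beside the rise of the macrophage markers.

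Partners of collagens at the epidermal basement membrane had 5 of 11 genes higher and 0 lower in untreated Lgr5-positive cells, with a median of 0.48 (0.03 over all measured genes). Of all tested genes, 6.21% were called higher and 10.9% lower in that comparison. With vismodegib 3 of the 11 fell in Lgr5-positive and 2 in Lgr5-negative cells, and 0 rose. Over all tested genes, 4.51% and 2.06% were called lower. Fras1, a matrix protein under embryonic and follicular epithelium, stood at 10.27 and 9.95 in untreated Lgr5-positive and 7.88 and 7.72 in Lgr5-negative arrays, and at 7.82 and 7.78 against 5.59 and 5.47 after treatment. The populations differed by 2.31 ± 0.14 before (adjusted p = 0.00036) and 2.27 ± 0.14 after treatment (adjusted p = 0.00183), and the gene fell by −2.31 ± 0.14 and −2.27 ± 0.14 in Lgr5-positive and Lgr5-negative cells. The laminin chain gene Lama3 (−1.10 ± 0.16) and the perlecan gene Hspg2 (−0.98 ± 0.14) fell in Lgr5-positive cells, and Hspg2 in Lgr5-negative cells too (−0.67 ± 0.14, adjusted p = 0.0488).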

How the data were processed

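Each of the 8 samples was 1 Affymetrix mouse array of amplified cDNA from sorted cells. The authors deposited log2 values made with RMA, per the submitters' processing notes (version not stated), a method that corrects background, makes the arrays' distributions alike and summarises probe sets, so a shift shared by most genes would be removed. Arrays had medians between 6.13 and 6.20, and arrays give no read depth. All 8 columns were used. Of 45141 probe sets, 104 were controls, 28898 carried a single symbol, 551 several and 15588 none. The probe set with the highest mean stood for each of 17097 genes, and 21 of the 42 collagen genes had more than 1.

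Genes above 4.85 in at least 2 arrays (14403) were fitted in R 4.3.3 with limma 3.58.1 (lmFit and eBayes, two-sided) in a model of 4 group means with 4 residual degrees of freedom, with Benjamini-Hochberg adjustment over all tested genes. The procedure was tested on simulated data. Both populations of a mouse came from the same animal; their deviations from the group means correlated at 0.142 (untreated) and 0.211 (vismodegib) across genes. A fit with the mouse as a block was an alternative, printed where it changes a call. Values of the whole table were fitted, and only collagen genes and listed genes are given. Named were collagen genes that were called or above the dim threshold on all arrays, and up to 4 called members per list and comparison, of which the text gives part. The members, classes and lists were chosen with earlier results of these data known. Classes follow textbook usage, with types IV, VII, XV and XVIII as basement membrane collagens. Alternatives were other filters, probe set rules, normalisations, blocks and arrays left out. Gene positions and upstream sequences are from RefSeq (GRCm38.p6).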

Additional observations from a re-analysis of the deposited data

How the results depend on the processing

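The collagen counts were recomputed with no filter, a filter at the median, the mean of probe sets, cyclic loess, an intensity trend, mouse blocks, only the 4 arrays compared, each array left out and, chosen after seeing the data, every probe set. No called collagen value changed sign under any of these. Leaving out 1 array gave 9 to 15 calls for vismodegib in Lgr5-positive cells (14 with all arrays), 4 to 9 in Lgr5-negative cells (8), 4 to 11 between untreated populations (11), 0 to 2 between treated ones (1) and 0 to 1 for the difference between the effects (0). Where this left a group with 1 array, that array was assumed to vary like the other groups. The number called over all tested genes also changed with the array left out, so these counts do not concern collagens alone. With only the 4 arrays compared, the Lgr5-negative drug effect had 5 calls and the treated populations 0 (234 and 11 of all 14403 tested genes). The filter at the median gave 2 calls between treated populations (Col5a2 added), beside 83 of 10617 tested genes. The difference between the effects had 1 call with the mouse as a replicate block (300 of all 14403 tested genes) and 1 with every probe set.

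With the mouse as a replicate block the untreated populations had 15 calls and the treated ones 1, beside 2652 and 105 of all 14403 tested genes. With the mouse number as replicate block, which pairs no animals across treatments, the vismodegib effect had 14 calls in the Lgr5-positive and 8 in the Lgr5-negative population. Over all tested genes these were 1470 and 357. Of the 34 calls (a gene in a comparison), 16 passed without each array in turn. Under the other settings 258 recomputed values passed and 14 did not, and the cause was not tested. The setting with every probe set is not part of these totals. With 2 arrays a group, and for genes near the dim threshold, small differences were not detectable.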
